A study of Sus scrofa with 6 samples.

Results

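The genes described here encode the machinery by which a synaptic vesicle docks and fuses with the presynaptic membrane. The list held 8 genes in 3 roles, and all 8 were found by symbol among the 21280 genes of the deposited protein-coding table. The SNAREs are SNAP25, VAMP2 and STX1A, the regulators are SYT1, CPLX1 and CPLX2, and the vesicle proteins are SYP and SYN2. Bulk RNA libraries came from 3 wild boars and from 3 domestic pigs of the Chinese Rongchang breed. The labels give every animal as a female of 2 years and name no treatment. The wild boar libraries were labelled brain, whereas the Rongchang pig libraries were labelled cerebrum and taken from an earlier deposit, so breed, labelled tissue and source project cannot be told apart. The series title names the prefrontal cortex.

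Neurotransmitter is stored in vesicles that fuse with the presynaptic membrane when calcium enters the nerve ending. VAMP2 on the vesicle zips together with STX1A and SNAP25 on the plasma membrane into a SNARE bundle that pulls the membranes together. SYT1 is the vesicle's calcium sensor for fast release, and the complexins CPLX1 and CPLX2 bind the assembled bundle and hold or promote fusion. SYP, synaptophysin, is an abundant membrane protein of the vesicle that binds VAMP2, and SYN2, synapsin II, coats vesicles and tethers them in the reserve pool.

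Levels are given as TPM, a transcript abundance that is scaled to gene length and so allows genes to be set side by side. The protein-coding TPM made up 23.2%, 17.2% and 31.0% of the nominal TPM total in wild boar 1 to 3, against 23.5%, 35.6% and 40.9% in Rongchang pig 1 to 3. Every listed gene can therefore shift together between libraries. Results are given on deposited TPM and on rescaled TPM, in which each library was divided by its median ratio to the others. The log2 factors ran from -0.79 in wild boar 2 to 0.52 in Rongchang pig 2. Over all 11752 tested genes the median log2 fold change was -0.41 on deposited TPM and 0.01 on rescaled TPM. The depth behind these gene values is unknown, since TPM does not keep it.

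Brain cell markers were present as labelled. Of 9 neuronal markers found, among them RBFOX3, MAP2 and TUBB3, 0 were at 0 in any library. Their summed rescaled TPM was 1049 to 1123 in wild boar and 919 to 1048 in Rongchang pig. Red blood cell genes summed to 448 to 1319 rescaled TPM in wild boar and 85.6 to 227 in Rongchang pig, and endothelial markers to 24.0 to 35.7 in wild boar and 16.7 to 19.5 in Rongchang pig. Markers of mural cells and fibroblasts summed to 80.2 to 105.5 in wild boar and 66.6 to 78.5 in Rongchang pig, and those of oligodendrocyte precursors to 47.8 to 58.1 in wild boar and 33.5 to 46.5 in Rongchang pig. These rescaled sums were higher in wild boar without overlap, and so, narrowly, was the neuronal sum. On deposited TPM only the red blood cell sum of these separated, at 522 to 760 in wild boar and 123 to 312 in Rongchang pig. The endothelial, mural and fibroblast, precursor and neuronal sums overlapped on that scale. Single markers did not all follow. The rescaled fold change was above 0 for 4 of 5 tested endothelial markers and 9 of 10 mural and fibroblast markers. It was above 0 for 3 of 4 tested precursor markers, 4 of 4 red blood cell genes and 5 of 9 neuronal markers. TEK (endothelial), RGS5 (mural) and PDGFRA (precursor) were at -0.36, -0.43 and -0.14 on the log2 scale. Sums for astrocytes, at 871 to 1212 in wild boar and 962 to 1062 in Rongchang pig, overlapped, as did those for oligodendrocytes and microglia. The part of cell makeup in the results below was not tested, and in bulk tissue fewer cells of a type and less RNA per cell cannot be told apart.

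SNAP25 dominated the group, and VAMP2 was its lowest member, in every library. Averaged over the 6 libraries on deposited TPM, the order was SNAP25, SYT1, SYP, CPLX2, SYN2, STX1A, CPLX1 and VAMP2. SNAP25 ranked between 15 and 35 among all genes of a library, whereas VAMP2 ranked between 2222 and 5926. Neighbours in that order kept it in all 6 libraries except SYN2 and STX1A, where SYN2 was the higher in 4 of 6. STX1A exceeded CPLX1 by a factor of only 1.01 to 1.87, and SYP exceeded CPLX2 by 1.14 to 1.63, so these neighbours lay close in some libraries. The steps from SNAP25 down to SYT1, by 2.87 to 4.17, and from SYT1 down to SYP, by 1.33 to 2.08, were wider. The gene models behind the counting are not given in the sources used here, so whether a short or split model lowers the level, rank and ratios of VAMP2 was not tested. The pig identifiers of VAMP1, the closest paralog of VAMP2, and of UNC13A had no matched symbol, and neither was analysed here.

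**Figure D1:**
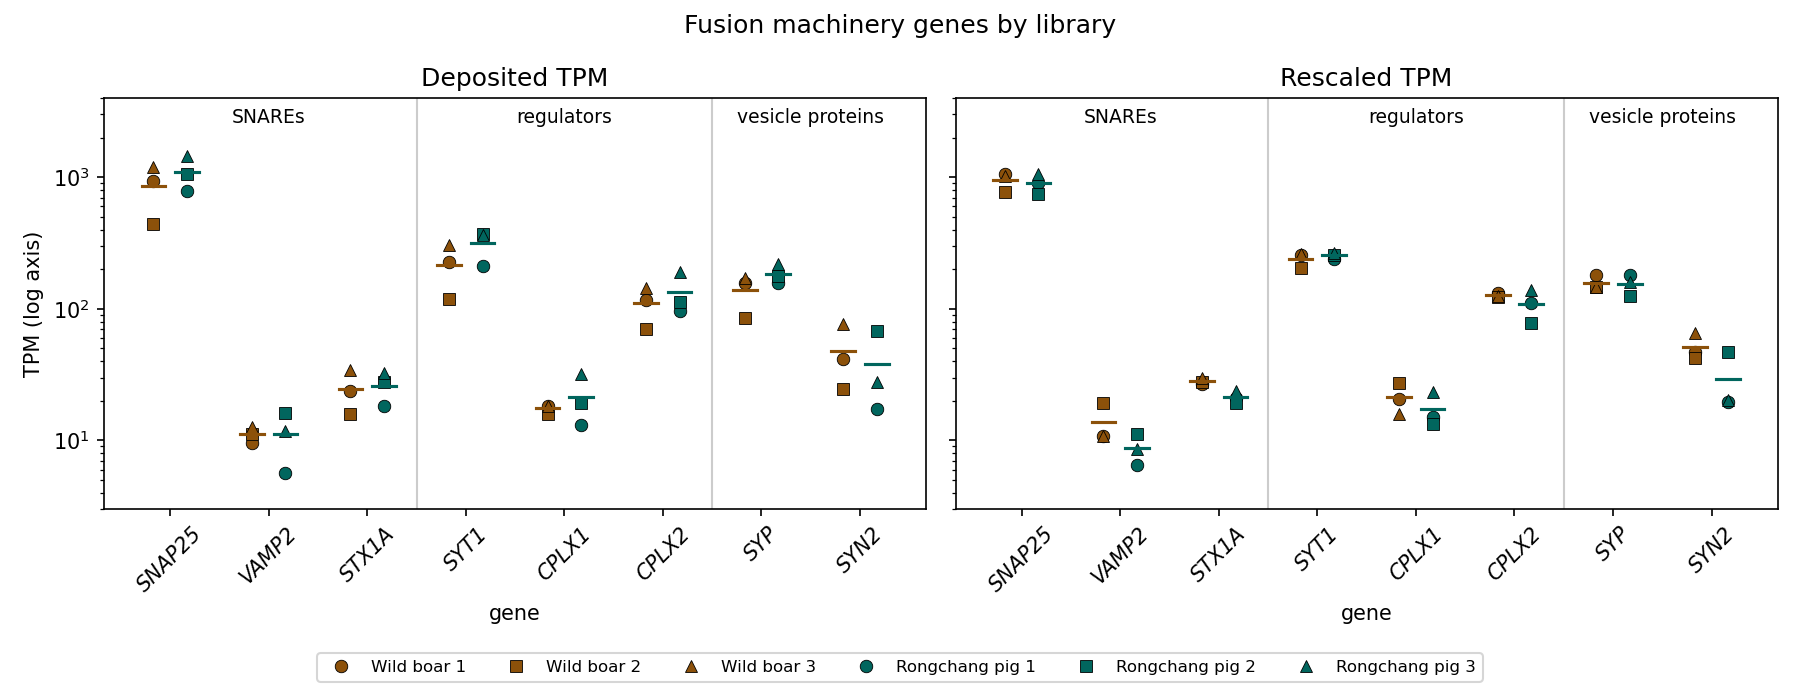
TPM of the 8 fusion genes on a log axis, deposited on the left and rescaled on the right, with 1 point per library and a bar at each breed's mean. SNAP25 is the highest and VAMP2 the lowest gene in each library, and rescaling draws the points of SNAP25, SYT1 and STX1A together within a breed.

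The division of the group's RNA among its roles was nearly the same in both breeds. SNAREs made 62.3% ± 1.98 of the summed TPM of the 8 genes in wild boar and 62.0% ± 2.28 in Rongchang pig (SD, n = 3 each). Regulators made 24.5% ± 1.40 in wild boar and 25.6% ± 1.31 in Rongchang pig, and vesicle proteins 13.2% ± 0.631 in wild boar and 12.4% ± 1.62 in Rongchang pig. SNAP25 alone gave 56.5% to 62.3% of the sum in each library, so the SNARE share can hardly show a change in STX1A or VAMP2. As a share of all protein-coding TPM, the 8 genes together took 0.582% ± 0.110 (wild boar) and 0.549% ± 0.0248 (Rongchang pig). These shares do not change with the scaling of a library and were not tested, as they are sums over the chosen genes.

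The next question was whether any fusion gene differed between wild boar and Rongchang pig. On deposited TPM 0 of 8 passed limma's test at an adjusted p of 0.05, against 1.6% of all tested genes (1.46% lower in wild boar). Of the 8, 0 had an unadjusted p under 0.05, against 17.8% of all tested genes. The members' median log2 fold change was -0.23, beside -0.41 for all genes, with 6 of 8 below 0. On rescaled TPM 1 of 8 passed, STX1A, which is 12.5% of them against a background of 19.5% of all genes (8.88% higher in wild boar). The median was then 0.27, beside 0.01 for all genes, with 7 of 8 above 0, against 51.5% of all tested genes. An unadjusted limma p under 0.05 was reached by 3 of 8, against 36.8% of all tested genes.

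**Figure D2:**
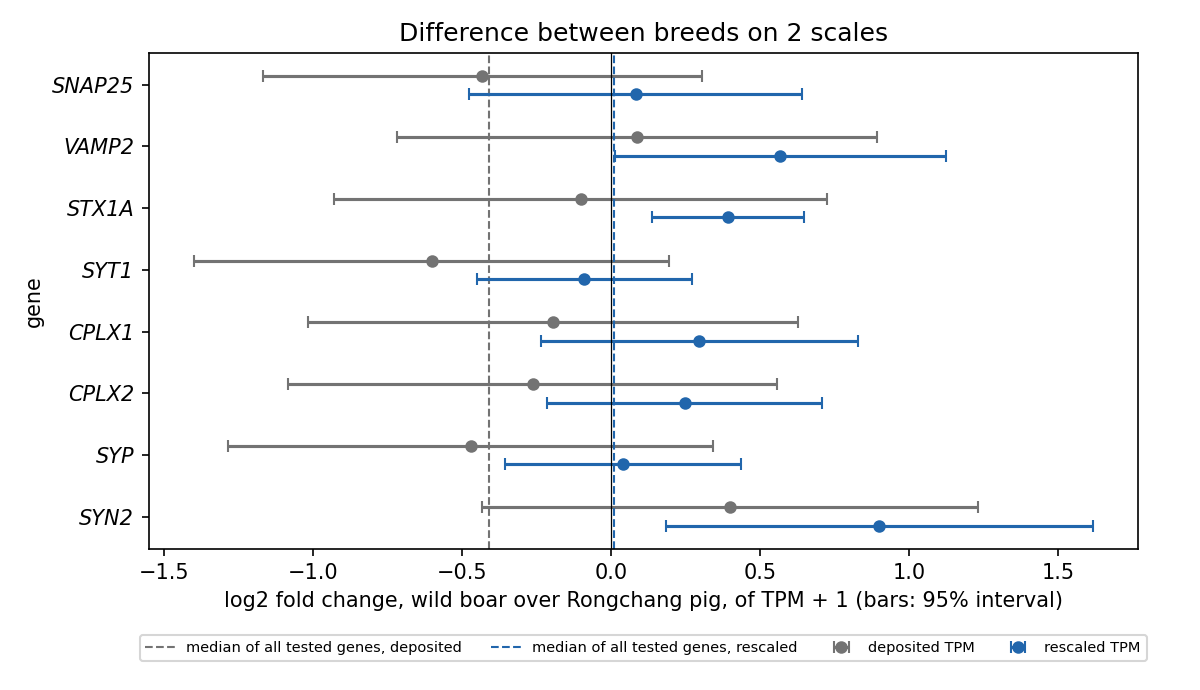
Log2 fold change of TPM + 1, wild boar over Rongchang pig, for each fusion gene on deposited and rescaled TPM, with 95% intervals and dashed lines at the median of all tested genes. Only STX1A, at 0.39 on rescaled TPM, passed the adjusted threshold, and the deposited intervals of all 8 genes include 0.

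Among the SNAREs, STX1A varied least within a breed and was the only one to pass as higher in wild boar on rescaled TPM. The rescaled log2 fold changes of all 3 SNAREs were above 0, and that of VAMP2, at 0.57, was larger but did not pass. STX1A had 26.9, 27.7 and 29.5 rescaled TPM in wild boar 1 to 3, against 20.9, 19.2 and 23.5 in Rongchang pig 1 to 3. Every wild boar library lay above every Rongchang pig library, as the groups did without overlap for 41.7% of all tested genes on this scale. The log2 fold change was 0.39 (SE 0.11, 95% interval 0.14 to 0.65, limma adjusted p = 0.0427). An exact two-sided permutation test on the same values gave p = 0.1, the smallest that 3 against 3 allow. The call was close to the threshold and was lost in 5 of the 6 fits that left out 1 library. The adjusted p was then 0.0897, 0.0992 and 0.124 without wild boar 1, 2 and 3, and 0.109 and 0.0741 without Rongchang pig 1 and 2, while the fold change stayed between 0.32 and 0.46.

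On deposited TPM the same gene did not separate the breeds. STX1A had 23.7, 16.0 and 34.4 TPM in wild boar, against 18.3, 27.6 and 32.2 in Rongchang pig, at a log2 fold change of -0.10 (SE 0.42). Its direction thus turns with the scaling. Set against the summed TPM of the 9 neuronal markers, which needs no scaling, STX1A made 2.56%, 2.59% and 2.63% in wild boar. In Rongchang pig it made 2.10%, 2.09% and 2.24%, without overlap. Every other fusion gene overlapped between the breeds on this measure, and the share of all genes that separate on it was not computed. Of those 9 markers, TUBB3 and UCHL1 passed as higher in wild boar on rescaled TPM, by 0.80 and 0.53 on the log2 scale, and 0 as lower. Over all tested genes, 8.88% passed as higher and 10.7% as lower. Of the 9, 5 were above 0, while MAP2 and ELAVL4 were at -0.36 and -0.33 and did not pass. The part of these markers in the STX1A result was not tested.

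SNAP25 had 938, 443 and 1192 TPM as deposited in wild boar, against 787, 1065 and 1454 in Rongchang pig. The lowest value belonged to wild boar 2, whose protein-coding sum was also the lowest, and the groups overlapped. After rescaling the values were 1064, 769 and 1024 in wild boar and 898, 741 and 1061 in Rongchang pig, with 1 low library in each breed. The log2 fold change was -0.43 (95% interval -1.17 to 0.31) on deposited and 0.08 (-0.48 to 0.64) on rescaled TPM, and both intervals include 0.

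VAMP2 had 9.49, 11.2 and 12.7 TPM in wild boar and 5.65, 16.1 and 11.8 in Rongchang pig on the deposited scale. On rescaled TPM it had 10.8, 19.4 and 10.9 in wild boar and 6.45, 11.2 and 8.62 in Rongchang pig. Wild boar 2 stood well above all other libraries, and Rongchang pig 2 overlapped the remaining wild boars. The rescaled log2 fold change was 0.57 (SE 0.24, limma adjusted p = 0.129, unadjusted p = 0.0463), which did not pass.

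Among the regulators, the calcium sensor SYT1 was the only member below 0 on both scales. SYT1 had 225, 118 and 304 TPM as deposited in wild boar and 210.1, 372 and 365 in Rongchang pig. Rescaled values were 255, 205 and 261 in wild boar and 240, 258 and 266 in Rongchang pig. Wild boar 2 was the low library, and the other 5 lay between 240 and 266. The log2 fold change was -0.60 (95% interval -1.40 to 0.20) on deposited and -0.09 (-0.45 to 0.27) on rescaled TPM, and neither passed (limma adjusted p = 0.402 and 0.719).

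The complexins, close paralogs with the same role, differed in level by several fold in every library. CPLX2 had 116, 70.8 and 145 TPM in wild boar and 96.7, 112 and 192 in Rongchang pig, and CPLX1 had 18.3, 15.8 and 18.4 in wild boar and 13.2, 19.3 and 31.7 in Rongchang pig, all as deposited. Both were highest in Rongchang pig 3, and the breeds overlapped. After rescaling, CPLX1 had a log2 fold change of 0.30 (SE 0.23, limma adjusted p = 0.389) and CPLX2 of 0.25 (SE 0.20, limma adjusted p = 0.408). Rescaled CPLX2 was even among the wild boars, at 132, 123 and 124 TPM, and spread in Rongchang pig, at 110.3, 77.8 and 140 TPM.

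Of the vesicle proteins, SYP did not pass on either scale and SYN2 was the most variable of the 8 genes. SYP had 158, 84.4 and 171 deposited TPM in wild boar and 158, 179 and 218 in Rongchang pig, and the rescaled log2 fold change was 0.04 (95% interval -0.36 to 0.44). Rescaled SYP ran from 146 to 179 TPM in wild boar and from 124 to 180 in Rongchang pig, a full overlap.

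SYN2 had 41.7, 24.4 and 76.0 deposited TPM in wild boar and 17.2, 68.0 and 28.0 in Rongchang pig. On rescaled TPM it had 47.3, 42.4 and 65.3 in wild boar and 19.7, 47.3 and 20.4 in Rongchang pig. Rongchang pig 2 thus sat among the wild boars, and Rongchang pigs 1 and 3 lay below all other libraries. The log2 fold change was 0.90 on rescaled TPM (SE 0.31, limma adjusted p = 0.0758), the largest of the 8 and not passing, and 0.40 on deposited TPM (SE 0.42). Without Rongchang pig 2 the rescaled value was 1.29 and passed (limma adjusted p = 0.00801), and without Rongchang pig 1 or 3 it was 0.69 or 0.71 and did not pass (0.208 and 0.185). TIMP4, a metalloproteinase inhibitor gene that overlaps SYN2 in the RefSeq annotation, had 0.286 to 0.701 deposited TPM over all libraries.

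The 8 genes differed widely in how much they varied between animals of a breed. The residual SD of rescaled log2(TPM + 1) within breeds was 0.54 for SYN2, 0.41 for VAMP2, 0.39 for CPLX1 and 0.30 for CPLX2. It was 0.26 for SNAP25, 0.22 for SYP, 0.15 for SYT1 and 0.11 for STX1A, beside a median of 0.16 over all tested genes. SYN2, VAMP2 and CPLX1 were thus at the 98.4, 96.2 and 95.3 percentile of all tested genes, and CPLX2, SNAP25 and SYP at 89.3, 83.1 and 75.4. SYT1, at 44.4, and STX1A, at 25.1, were the members below the median.

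**Figure D3:**
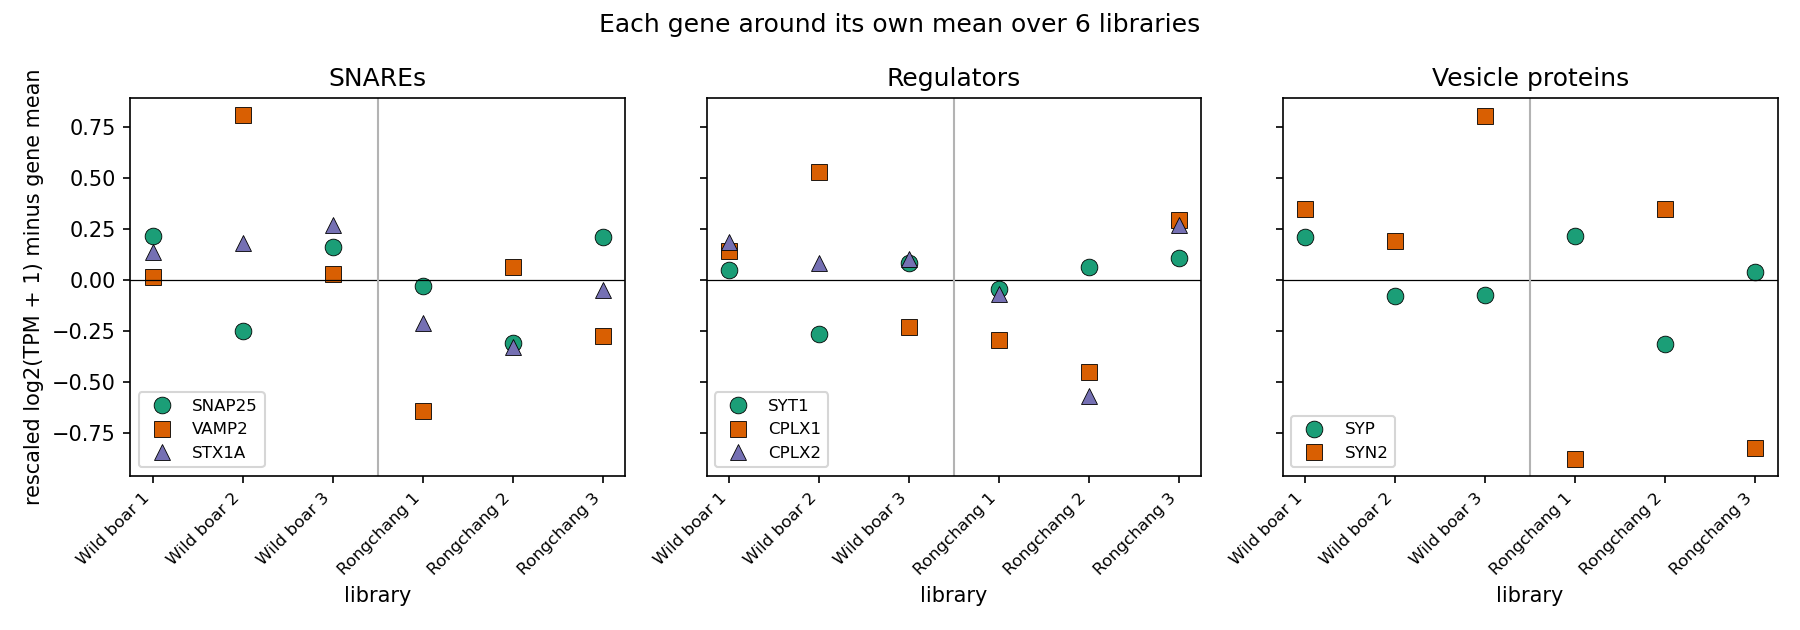
Rescaled log2(TPM + 1) of each fusion gene minus its own mean over the 6 libraries, by role, with wild boar libraries left of Rongchang pig libraries. VAMP2 and CPLX1 stand highest in wild boar 2, SYN2 is lowest in Rongchang pigs 1 and 3, and STX1A is above its mean in all 3 wild boars.

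The closest profiles over the 6 libraries were those of SNAP25 and SYP, with a root-mean-square distance of 0.17 in centred log2 units. SNAP25 lay as near to SYT1 (0.17) and CPLX2 (0.18), the calcium sensor and the more abundant complexin. VAMP2 lay 0.57 from SNAP25, its partner in the SNARE bundle, and SYN2 lay 0.74 from SYP. The distance between the complexins was 0.25. These distances are descriptions over libraries that share their scaling.

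Among 3993 other genes at a mean of at least 10 rescaled TPM, the 5 nearest to the members' mean profile were MGLL, PSAP, NECAP1, CDK5R1 and CDK2AP1. Their distances were 0.03 to 0.05, beside a median of 0.25 over the genes compared. MGLL, which encodes an endocannabinoid-degrading lipase, had 16.4, 15.9 and 16.1 rescaled TPM in wild boar and 11.7, 12.3 and 13.3 in Rongchang pig. The members themselves lay 0.08 (STX1A) to 0.55 (SYN2) from that mean, so it follows STX1A far more closely than SYN2.

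Ratios of fusion genes within a library were compared next, because they do not depend on the scaling. Of 6 ratios, 0 reached an unadjusted exact permutation p of 0.1, the smallest 3 against 3 allow, and the Benjamini-Hochberg adjusted p was 0.75 to 1 over the 6. The ratio of STX1A to SNAP25, which partner on the plasma membrane, was 0.0253, 0.0360 and 0.0289 in wild boar and 0.0233, 0.0259 and 0.0222 in Rongchang pig. Rongchang pig 2 overlapped wild boar 1 only (log2 difference 0.32, exact permutation p = 0.2).

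The ratio of CPLX1 to CPLX2 was 0.169 ± 0.0492 in wild boar and 0.158 ± 0.0190 in Rongchang pig (SD, n = 3 each, exact permutation p = 1). Its highest value, 0.223, was in wild boar 2. VAMP2 to SNAP25 was 0.0101, 0.0252 and 0.0106 in wild boar and 0.00718, 0.0151 and 0.00813 in Rongchang pig, so animal 2 of each breed had the highest ratio of its breed (log2 difference 0.54, exact permutation p = 0.5).

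SYN2 to SYP was 0.264, 0.289 and 0.445 in wild boar and 0.109, 0.381 and 0.129 in Rongchang pig (log2 difference 0.89, exact permutation p = 0.3). Within Rongchang pig the ratio in animal 2 stood apart from that in the other 2 animals. SYT1 to SYP was 1.54 ± 0.213 in wild boar and 1.70 ± 0.374 in Rongchang pig, and CPLX1 to SYT1 was 0.0916 ± 0.0376 in wild boar and 0.0671 ± 0.0179 in Rongchang pig (exact permutation p = 0.7 and 0.5, n = 3 each).

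The wider machinery of vesicle release was then read from the same fits, over 101 listed genes in 5 lists, of which 85 were tested. On deposited TPM 1 passed, UNC13C, and 84 did not. On rescaled TPM 20 passed, 14 higher and 6 lower in wild boar, which is 23.5% of them beside the background of 19.5%. Over all tested genes, 8.88% passed as higher and 10.7% as lower, and the counts of each list below stand beside those shares. Their median log2 fold change was -0.26 on deposited and 0.24 on rescaled TPM, beside -0.41 and 0.01 for all genes. The number of calls on rescaled TPM was 4 to 7 without wild boar 1, 2 or 3 or Rongchang pig 1, 13 without Rongchang pig 3 and 22 without Rongchang pig 2.

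**Figure D4:**
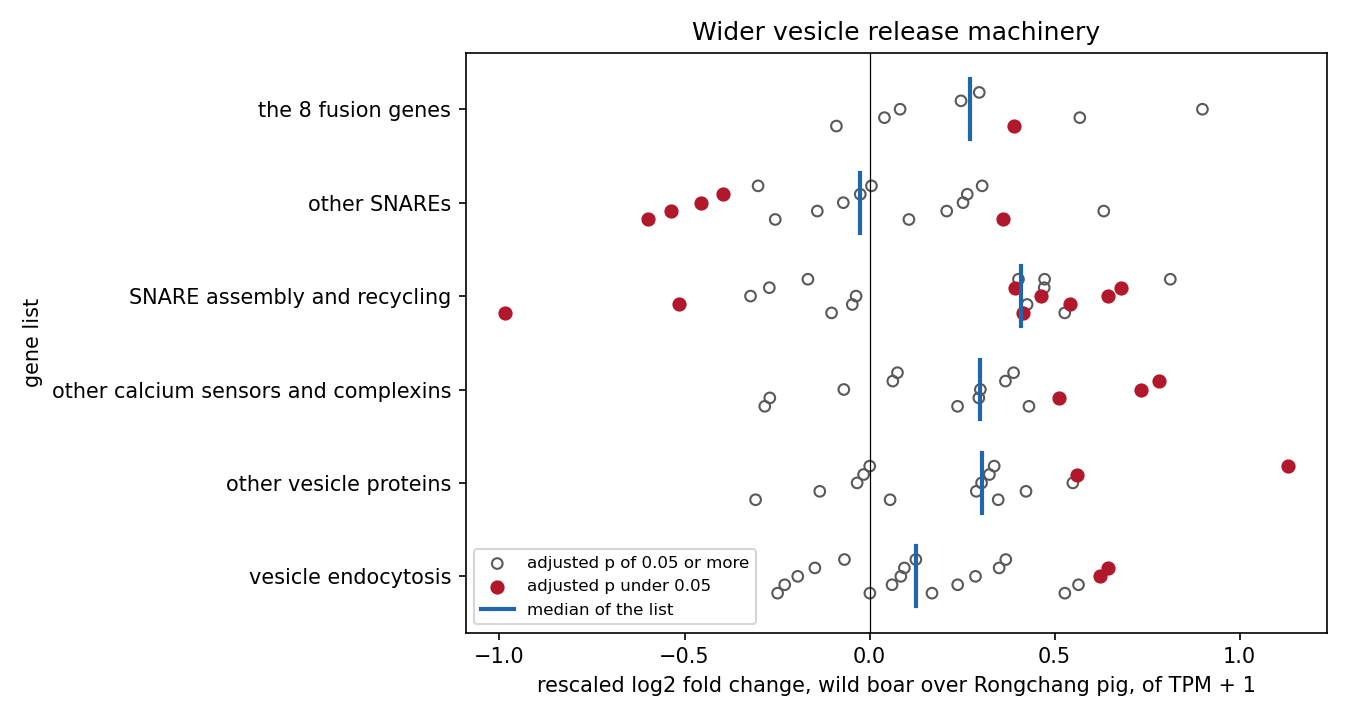
Rescaled log2 fold change of TPM + 1, wild boar over Rongchang pig, of the fusion genes and 5 wider lists, with 1 point per tested gene, filled where the adjusted p was under 0.05, and a bar at the list's median. Of 17 other SNAREs tested, 4 passed as lower and 1 as higher, beside 10.7% and 8.88% of all tested genes, and differences between the lists were not tested.

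Of 17 other SNAREs tested, 4 were lower and 1 higher on rescaled TPM, with a median of -0.03. SNAP23, the SNAP25 relative used for constitutive secretion in most tissues, fell by 0.60 on the log2 scale (SE 0.12, limma adjusted p = 0.0146), at 7.96 ± 1.03 rescaled TPM in wild boar and 12.5 ± 0.851 in Rongchang pig (SD, n = 3 each). STX2 and STX3, plasma membrane syntaxins, were at -0.54 and -0.46, and VAMP4, a SNARE of the trans-Golgi network and endosomes, at -0.40, all passing as lower. STX16, a trans-Golgi syntaxin, was higher by 0.36 on rescaled TPM and at -0.11 on deposited TPM, where it did not pass. With 1 library left out, SNAP23 passed in 4 of 6 fits, STX2 in 3, STX3 and STX16 in 1 each and VAMP4 in 0.

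Of 20 tested genes that assemble, prime or recycle SNAREs, 6 were higher and 2 lower on rescaled TPM, with a median of 0.41. UNC13C, a Munc13 family priming factor, was lower on both scales, by -0.99 on rescaled TPM (SE 0.17, limma adjusted p = 0.00934) and -1.45 on deposited TPM (SE 0.41, limma adjusted p = 0.0316). It had 7.87, 6.84 and 5.76 rescaled TPM in wild boar and 12.2, 13.1 and 18.6 in Rongchang pig. The groups did not overlap, as for 41.7% of all tested genes on this scale. Its rescaled call stood in all 6 fits that left out 1 library, and its deposited call in 2 of 6.

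SNCB, which encodes beta-synuclein, and DNAJC5, the vesicle chaperone CSP-alpha that keeps SNAP25 folded, were higher by 0.68 and 0.54 on rescaled TPM and passed in all 6 such fits. On deposited TPM neither passed. NAPA, the alpha-SNAP adaptor that recruits NSF to spent SNARE bundles, was higher by 0.64 and passed in 2 of 6. SNPH, a syntaxin-binding protein that also anchors axonal mitochondria, and SGTA, a co-chaperone, were higher by 0.41 and 0.39 on rescaled TPM and passed in 1 of 6 each. On deposited TPM they were at -0.02 and -0.08, so their direction turns with the scaling. NSF, the ATPase that pulls spent SNARE bundles apart, was at 0.47 (limma adjusted p = 0.0585) and did not pass.

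Of 14 further genes tested, which were other synaptotagmins (SYT genes), DOC2A and RPH3A, 3 were higher and 0 lower on rescaled TPM, with a median of 0.30. DOC2A, a high-affinity sensor linked to spontaneous and asynchronous release, was higher by 0.78 (SE 0.11, limma adjusted p = 0.00641). DOC2A had 8.23, 8.69 and 10.1 rescaled TPM in wild boar and 4.45, 5.05 and 4.93 in Rongchang pig, with no overlap. The groups lay apart in this way for 41.7% of all tested genes on this scale. On deposited TPM DOC2A overlapped between the breeds and did not pass, at 0.34 (limma adjusted p = 0.626). Its rescaled call stood in all 6 fits that left out 1 library. RPH3A, a RAB3A effector, and SYT7, a slow synaptotagmin, were higher by 0.73 and 0.51 and passed in 2 and 1 of those fits. SYT2, the fast sensor of the hindbrain and of some interneurons, was at 0.30 and did not pass (limma adjusted p = 0.403), and CPLX3 was too low to test, at 0.570 to 1.01 deposited TPM.

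Of 15 other vesicle proteins tested, 2 were higher on rescaled TPM, with a median of 0.30. SYNGR3, a synaptogyrin and relative of SYP, was higher by 0.56 and passed in 4 of 6 fits that left out 1 library. SYN1, the paralog of SYN2, was higher by 1.13 (SE 0.34, limma adjusted p = 0.0496) although the breeds overlapped, and it passed in 1 of 6. RAB3A, the vesicle GTPase, was at 0.32 and did not pass (limma adjusted p = 0.141). Of 19 endocytosis genes, DNM1, the neuronal dynamin, and AP2A1, an adaptor subunit, were higher by 0.64 and 0.62 and passed in 1 of 6 such fits each, with a list median of 0.13.

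SYN1 shared with SYN2 the gap between Rongchang pig 2 and the other Rongchang pigs. SYN1 had 19.8, 23.2 and 27.2 rescaled TPM in wild boar and 6.54, 20.0 and 7.51 in Rongchang pig. In both synapsins Rongchang pig 2 was within the wild boar range. They were set side by side after their values were seen, and the likeness was not tested.

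**Figure D5:**
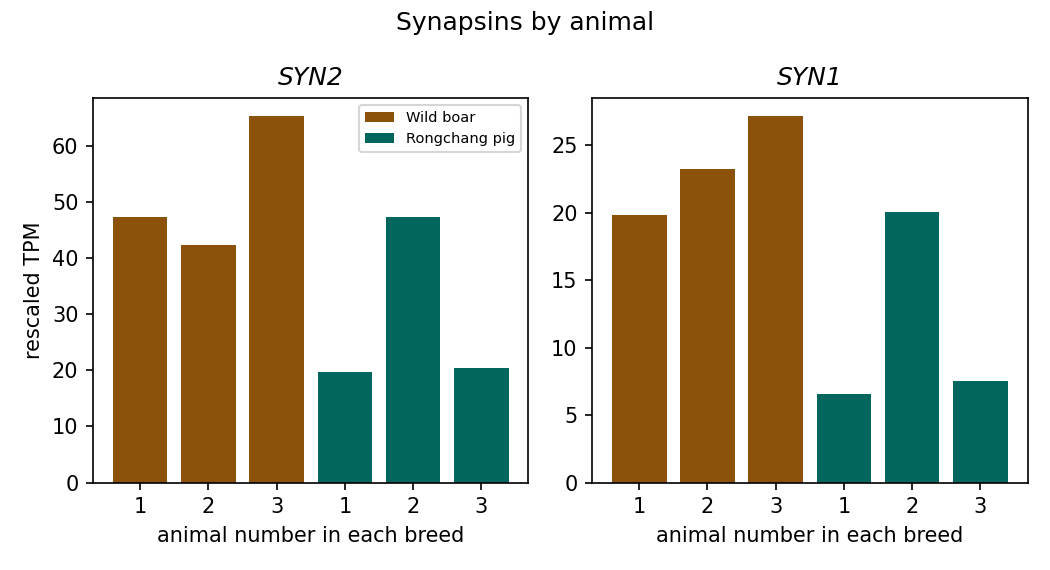
Rescaled TPM of SYN2 and SYN1 in each library, as 1 bar per animal, with the 3 wild boars left of the 3 Rongchang pigs. In both genes Rongchang pig 2 stands well above Rongchang pigs 1 and 3, for SYN2 at 47.3 TPM beside 19.7 and 20.4.

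Circular RNAs (circRNAs), closed loops made by back-splicing, were deposited as a separate table of 11375. Of these, 5 lay within a fusion gene, 4 in SYN2 and 1 in SYT1, and none was listed within SNAP25, VAMP2, STX1A, CPLX1 or CPLX2. SYP lies on chromosome X, from which the table held 0 circRNAs. Coordinates below are those deposited, with the start moved by 1 base to count from 1, and the genome build was not given in the sources used here. Reads are the smallest whole numbers of back-splice reads that give the deposited TPM. Over the whole circRNA table, TPM summed to 1994, 2029 and 2121 in wild boar 1 to 3. In Rongchang pig 1 to 3 it summed to 2879, 2900 and 3367, without overlap. Reads recovered over all circRNAs were 37670, 58670 and 33360 in wild boar and 70365, 48375 and 72167 in Rongchang pig. The circRNA reads, TPM and fold changes below are not rescaled for these totals.

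The SYN2 circRNA with the most reads, ssc_circ_3857 (chromosome 13, 68198426 to 68200527, plus strand), was seen in 9, 11 and 6 wild boar reads, against 9, 1 and 10 Rongchang pig reads. That is 0.683, 0.517 and 0.558 circRNA TPM in wild boar and 0.532, 0.0882 and 0.719 in Rongchang pig. Rongchang pig 2, the one with high SYN2 messenger RNA, was the low library for this circle. Its log2 fold change was 0.84 (SE 0.74, limma adjusted p = 0.641), and -0.09 without Rongchang pig 2.

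The circle ssc_circ_3854 (chromosome 13, 68173385 to 68182384, plus strand) was seen in 1, 1 and 0 wild boar reads, against 6, 3 and 2 Rongchang pig reads. All wild boar values lay below all Rongchang pig values, a separation shown by 20.6% of tested circRNAs. With so few reads the log2 fold change of -3.74 (SE 1.67) depends on the pseudocount, and it did not pass (limma adjusted p = 0.418). The circle ssc_circ_3855 shares its start and runs to the end of ssc_circ_3857, from 68173385 to 68200527, and had 11 reads over all libraries. The circle ssc_circ_3856, from 68174696 to 68182384, ends where ssc_circ_3854 ends and had 7 reads.

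The SYT1 circle ssc_circ_9308 (chromosome 5, 101961520 to 102012920, minus strand) was seen in 2, 0 and 3 wild boar reads, against 1, 1 and 2 Rongchang pig reads. At this depth no difference was detectable. Of the 5 circles 0 passed, and 0 had an unadjusted p under 0.05, beside 0% of the 9709 circRNAs tested by limma with these settings and 12.1% at an unadjusted p under 0.05.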

How the data were processed

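Ribosomal RNA was depleted from total RNA and stranded libraries were made, per the labels' protocols. STAR 2.6.0c and BWA 0.7.17 are listed, per the submitters' processing notes, with no role stated. The build, the annotation, the counter and its strand mode are not given in the sources used here, so reads of overlapping or antisense genes may not be separated. The authors deposited TPM per library for genes and for circRNAs, and 0 further per-sample columns were unused. Symbols matched 14821 of 21280 gene identifiers.

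A gene was tested if 3 or more libraries held it at 1 TPM or above (11752 genes). The test ran on log2(TPM + 1), deposited and median-ratio rescaled, using limma 3.58.1 (R 4.3.3, variance trend on), two-sided, with Benjamini-Hochberg adjustment over all tested genes and a threshold of 0.05. Such fold changes understate changes of low genes. On deposited TPM limma pooled the variance wholly over genes of like level, so those SE do not measure a single gene's spread. CircRNAs above 0 in at least 3 libraries were tested on log2(TPM + 0.00127), where the pseudocount is below the value of 1 read. All 11375 circRNAs came out as whole reads within a relative tolerance of 1e-05. Host genes were found by position in RefSeq's Sscrofa11.1 table, where 98.5% of circRNAs fell within a gene. With positions moved by 1000000 bases, 40.7% did. The start column counts from 0: of 123 short circRNAs, 82 shared one value of read times length with the start so read, and 3 otherwise. The limma tests of genes were checked on simulated data, drawn separately for each gene. No shift shared by the genes of a library was simulated, so that check does not cover the scaling.

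Named genes were all 8 members, up to 6 passing genes of each wider list by lowest p on either scale, a set of fixed partners and paralogs, and the 5 genes of nearest profile. Members, lists and rules were chosen with earlier results of these data known. Nothing shows how the animals of a breed are related, and p-values measure the spread between these libraries only. Alternatives were other pseudocounts, filters, scalings, limma without the trend, a replicate block and leaving out each library. Some genes that this rule names are not reported here.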

Additional observations from a re-analysis of the deposited data

How the results depend on the processing

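With 3 animals a breed and unknown depth, only differences well above the spread between libraries could be called. The count of fusion genes called on deposited TPM was 0 under every alternative run, and of their circRNAs likewise 0. On rescaled TPM the count of 1 became 0 without the filter on low values, with a common protein-coding sum and with a common sum without mitochondrially encoded genes, and was 0 to 1 with 1 library left out. In the fit with the replicate block it was 1, but VAMP2 (adjusted p = 0.0471) in place of STX1A (0.0669). Leaving out Rongchang pig 2 also gave 1, SYN2. The cause was not tested.

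The count over all genes on deposited TPM, 188, was 6 without the filter, 49 at TPM of at least 5, 285 without the trend, 70 with the replicate block and 26 to 426 with 1 library left out. On rescaled TPM, 2295 became 1250 with the replicate block, 1145 with a common protein-coding sum and 779 to 2165 with 1 library left out. For the wider lists, the deposited count of 1 was 0 without the filter, at TPM of at least 5 and with the replicate block, and 0 to 1 with 1 library left out. The rescaled count of 20 was 9 without the filter, 8 with the replicate block, 7 with a common protein-coding sum, 10 without mitochondrially encoded genes in that sum, and 4 to 22 with 1 library left out. Same-numbered animals come from different breeds and did not deviate together (correlations 0.11, -0.07 and -0.16), so the block shares only a number.

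Small differences changed sign. On rescaled TPM, SNAP25 and SYP were at -0.028 and -0.070 with the sum without mitochondrially encoded genes and at -0.17 and -0.13 with quantile scaling. With 1 library left out, rescaled SNAP25 ranged from -0.055 to 0.23, SYP from -0.11 to 0.16 and SYT1 from -0.15 to 0.020. Deposited values ranged from -0.37 to 0.16 for STX1A, -0.49 to 0.029 for CPLX2, -0.30 to 0.38 for VAMP2, -0.032 to 0.93 for SYN2 and -0.48 to 0.12 for CPLX1. The log2 ratio difference ranged from -0.16 to 0.25 for CPLX1 to CPLX2 and from -0.29 to 0.028 for SYT1 to SYP. For ssc_circ_3855, ssc_circ_3857 and ssc_circ_9308 it was -2.67 to 0.36, -0.088 to 1.42 and -2.33 to 1.16.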
